A study of Mus musculus with 6 samples.

Results

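A module of 37 genes of the extracellular matrix was examined in RNA-seq of CD11b+ cells from the cortex of mice that had received repeated peripheral LPS. The members were set by a list of gene symbols: laminins, collagens, nidogens, proteoglycans, lysyl oxidases, and matrix proteases with their inhibitors. All 37 were found among the 16516 genes of the deposited table. The 4LPS group held 3 samples from mice given LPS of Escherichia coli intraperitoneally at 500 µg/kg on each of 4 days. The NS group held 3 samples from mice given normal saline on the same schedule. In both groups the mice were C57BL6/J males of 8 to 10 weeks, the cortices were taken 7 days after the first injection, and each sample pooled cells from 2 mice. The comparison asks which transcripts of these cells differed after 4LPS, a treatment that the study used to precondition the brain before ischemia. No sample had undergone ischemia.

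The basement membrane is a thin sheet of matrix that surrounds every brain capillary and separates endothelial cells and pericytes from the endfeet of astrocytes. Laminin trimers and collagen IV form its networks, nidogens and the heparan sulfate proteoglycan perlecan link them, and agrin is a further heparan sulfate proteoglycan. Endothelial cells, pericytes, astrocytes and fibroblasts are the cells known to make most of it. Fibrillar collagens and elastin make up the interstitial matrix of large vessels and meninges. Enzymes of the lysyl oxidase family oxidize lysines of collagen and elastin so that the fibres become cross-linked. Matrix metalloproteinases (MMPs) cleave matrix proteins, and the tissue inhibitors of metalloproteinases (TIMPs) block them.

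CD11b is the integrin chain that the magnetic beads bind, and the label names the cells microglia. The summed level of 10 microglia markers was 45738 to 46323 CPM in 4LPS and 46771 to 49341 CPM in NS, where CPM are counts scaled to a common library total after TMM normalization. With edgeR 1 of these 10 passed, P2ry12, and it fell. DESeq2 called 7 of them lower and 1 higher, and limma-voom called 3 lower. The samples also held transcripts of other cells. The sum of 14 endothelial markers was 304 to 594 CPM in 4LPS and 536 to 1042 CPM in NS, none of them was at 0, and 4 fell (Pecam1, Kdr, Slco1a4 and Emcn). The sum of 14 pericyte and smooth muscle markers was 165 to 362 CPM in 4LPS and 252 to 534 CPM in NS, and none of these passed with edgeR (4 were lower at an unadjusted p under 0.05, and 3 passed as lower with DESeq2 and 0 with limma-voom). The sum of 14 fibroblast markers was 44.7 to 79.8 CPM in 4LPS and 96.2 to 201 CPM in NS, and 1 of the 12 tested fell with edgeR (Ogn). Of 14 astrocyte markers 8 fell, and their sum was 227 to 264 CPM in 4LPS and 326 to 349 CPM in NS. The sum of 13 choroid plexus markers varied most, at 3445, 19.8 and 897 CPM in 4LPS and 10376, 8679 and 1093 CPM in NS. None of these 13 passed with edgeR, DESeq2 or limma-voom. NS replicate 3 stood apart from the other NS samples, with a mean chi-square per gene of 21.4 and 24.4 against NS replicates 2 and 1, whereas those 2 differed from each other by 5.92. Values without NS replicate 3 are therefore given where a result changed. They keep the 2 NS samples with the highest choroid plexus sums, so they are not free of transcripts of other cells. In such bulk samples fewer cells of a type and less RNA per cell cannot be told apart.

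In the matrix module Lox, Mmp14 and Loxl3 rose in 4LPS and 7 genes fell, while most members did not pass the test. Of the 37 members 36 passed the filter on low counts. With edgeR at an adjusted p under 0.05, 7 fell (Hspg2, Timp3, Lama5, Serpinh1, Lamb2, Nid2 and Col1a2), which is 19.4% of those tested, against 6.43% of all 13151 genes tested. The 3 that rose are 8.33% of those tested, against 9.95% of all genes. The other 26 did not pass, of which 10 had a log2 fold change below 0 and 2 one above 0 at an unadjusted p under 0.05. The log2 fold change of 4LPS over NS was below 0 in 28 members and above 0 in 8, and over all genes it was below 0 in 6934 and above 0 in 6217. Its median over the members was -0.57, and over all genes -0.02. The samples of the groups did not overlap in 10 members that were lower and 5 that were higher in 4LPS, beside 17.5% and 19.9% of all genes tested. Among all calls 60.8% were higher in 4LPS, but 34.6% without a composition factor and 73.5% with a correction for gene length. The members, with a median length of 4603 bases, were longer than the genes tested, with a median of 2717 bases. Without 4LPS replicate 2 the number of members lower was 4, beside 363 of all genes. Without NS replicate 3 it was 11, beside 1215 of all genes, while the median log2 fold change of the members was -0.28. With all samples 7 members and 845 of all genes were lower.

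**Figure D1:**
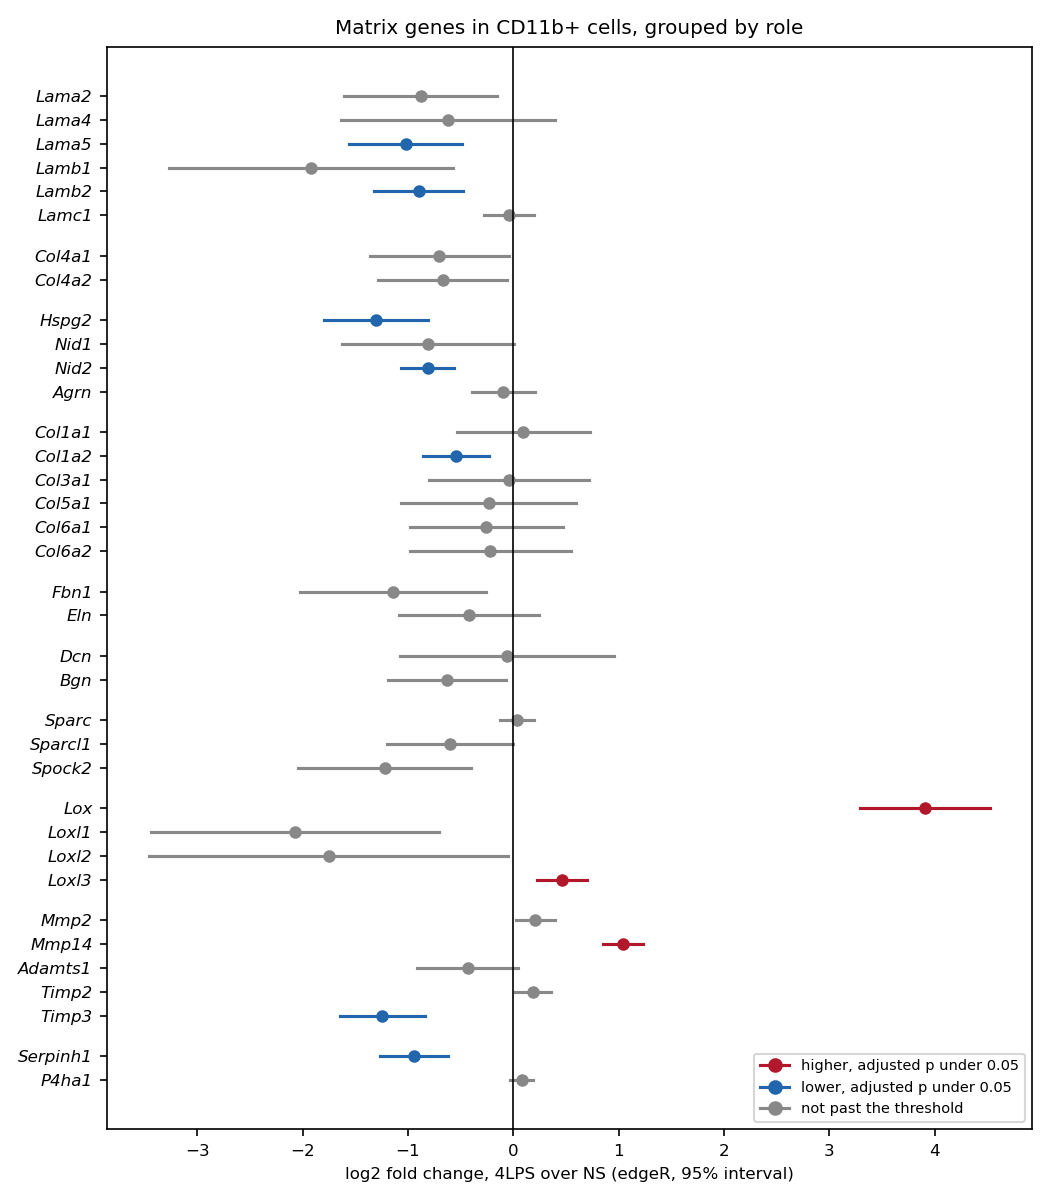
Log2 fold change of 4LPS over NS (x axis) of the 36 members tested, ordered by role (y axis), with the 95% interval from edgeR, 3 samples per group. Points in red rose, points in blue fell and points in grey did not pass an adjusted p of 0.05. Lox stands far to the right at 3.91, and all 12 members of the basement membrane lie left of 0, though Agrn and Lamc1 lie right of it with the correction for gene length.

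Levels between genes are compared in FPKM, which are scaled for gene length. Sparc, which encodes a collagen-binding matricellular protein that microglia are known to express, was the highest member by far, at 1597 ± 20.6 FPKM in 4LPS and 1662 ± 72.3 FPKM in NS (SD, n = 3 each, as throughout). Timp2 followed at 200.3 ± 15.2 FPKM in 4LPS and 188 ± 11.7 FPKM in NS, and P4ha1 at 114 ± 4.37 FPKM in 4LPS and 116 ± 2.73 FPKM in NS. These 3 members held the same ranks in both groups, and none of them passed the test. Most other members were low. In 4LPS 12 of the 37 averaged under 1 FPKM and in NS 9, while 8 in 4LPS and 12 in NS reached 10 FPKM. Lox was the member that moved most in rank, to 9 in 4LPS against 31 in NS. Together the members took 0.548% to 0.577% of all counts in 4LPS and 0.6% to 0.619% in NS, most of it Sparc.

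Lox, Mmp14, Hspg2, Nid2, Serpinh1 and Timp3 passed the test in all 19 alternative analyses that were run. For 4 of them RefSeq gives a promoter window, and the 250 bases before the annotated start are shown because these are the members whose difference held throughout. The windows are those of GRCm38.p6, written 5′ to 3′ on the strand of the gene, and capitals mark the GC box GGGCGG or its reverse complement, the motif bound by factors of the Sp family. The window of Mmp14 is chr14:54431348-54431597 on the plus strand, that of Timp3 chr10:86300162-86300411 on the plus strand, that of Hspg2 chr4:137468553-137468802 on the plus strand and that of Serpinh1 chr7:99353240-99353489 on the minus strand.
Mmp14: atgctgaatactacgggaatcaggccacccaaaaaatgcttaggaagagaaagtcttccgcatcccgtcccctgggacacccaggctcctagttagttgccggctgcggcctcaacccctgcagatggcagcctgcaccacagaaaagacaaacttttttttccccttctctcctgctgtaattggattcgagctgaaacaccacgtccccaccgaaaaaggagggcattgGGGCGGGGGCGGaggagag
Timp3: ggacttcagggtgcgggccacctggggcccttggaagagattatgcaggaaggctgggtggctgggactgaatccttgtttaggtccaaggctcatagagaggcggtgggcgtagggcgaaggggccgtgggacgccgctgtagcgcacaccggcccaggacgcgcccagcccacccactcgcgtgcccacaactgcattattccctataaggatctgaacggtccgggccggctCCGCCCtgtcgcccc
Hspg2: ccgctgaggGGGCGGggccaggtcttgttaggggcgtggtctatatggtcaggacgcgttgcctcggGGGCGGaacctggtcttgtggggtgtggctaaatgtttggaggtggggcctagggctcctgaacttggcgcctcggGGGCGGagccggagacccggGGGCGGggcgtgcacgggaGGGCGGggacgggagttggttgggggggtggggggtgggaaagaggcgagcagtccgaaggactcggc
Serpinh1: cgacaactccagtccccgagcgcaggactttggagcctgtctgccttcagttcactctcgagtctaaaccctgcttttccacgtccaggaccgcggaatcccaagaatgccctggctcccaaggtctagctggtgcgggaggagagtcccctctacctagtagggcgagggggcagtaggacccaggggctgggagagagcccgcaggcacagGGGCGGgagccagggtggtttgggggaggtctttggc
Hspg2 had 5 GC boxes, Mmp14 had 2 next to each other, which begin 19 and 13 bases before the start, and Timp3 and Serpinh1 had 1 each. A GC box on either strand was in 19 of 26 windows of 24 members (73.1%), in 32.7% of 32851 windows of all genes and in 42.6% of 21263 windows of protein-coding genes. The AP-1 motif TGANTCA, the TATA box TATAAA and the heat shock element core GAANNTTC, each searched on both strands, were in none of the 4 windows shown. They were in 6.75%, 12.4% and 6.69% of all windows. These matches describe the sequence only, and a GC box stood before Mmp14, which rose, as well as before the 3 genes that fell.

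Of the 4 lysyl oxidases among the members, Lox and Loxl3 rose, while Loxl1 and Loxl2 were low in all samples and lay lower in 4LPS. Lox, on chromosome 18, encodes the founding enzyme of the family. Its level was 35.7, 43.7 and 56.1 CPM in 4LPS and 2.71, 2.07 and 4.21 CPM in NS. The lowest 4LPS sample was thus far above the highest NS sample, and in counts the groups summed to 2000 reads in 4LPS and 144 in NS. The log2 fold change was 3.91 (standard error 0.27, adjusted p = 8.95e-05 from edgeR) and 2.63 to 4.24 over the alternatives. Loxl3, which in mice is needed for the palate and the spine, had 37.3, 42.3 and 44.1 CPM in 4LPS and 33.9, 27.7 and 28.3 CPM in NS. The groups did not overlap, but the gap between the lowest 4LPS and the highest NS sample was small, and the log2 fold change was 0.46 (standard error 0.10, adjusted p = 0.0205 from edgeR). The call of Loxl3 was lost on leaving out 4LPS replicate 2, 4LPS replicate 3 or NS replicate 2, with log2 fold changes of 0.45, 0.42 and 0.41 and adjusted p of 0.0657, 0.0732 and 0.0639 from edgeR. It was also lost in all 3 fits on FPKM, and over all alternatives its adjusted p was 0.00226 to 0.083. Reads of Loxl3 and of Htra2, an overlapping gene on the opposite strand, may not be separated, because no source used here says whether strand was counted.

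Loxl1, which cross-links elastin, had 0.88, 0.48 and 0.41 CPM in 4LPS and 3.97, 2.64 and 0.87 CPM in NS, and the groups met at the lowest NS sample, replicate 3. The difference was -2.07 on the log2 scale (with a standard error of 0.59 and an adjusted p of 0.0507 from edgeR). Loxl2 had 1.08, 0.20 and 0.54 CPM in 4LPS and 3.59, 2.07 and 0.56 CPM in NS, a difference of -1.75 on the log2 scale (with a standard error of 0.74 and an adjusted p of 0.140 from edgeR). In both genes NS replicates 1 and 2 were high and NS replicate 3 was at the level of 4LPS. The choroid plexus marker sum was also high in NS replicates 1 and 2 (10376 and 8679 CPM) and lower in NS replicate 3 (1093 CPM). Without NS replicate 3 both passed, with log2 fold changes of -2.47 for Loxl1 and -2.20 for Loxl2 and adjusted p of 0.00537 and 0.0262 from edgeR (over all alternatives 0.00537 to 0.162 and 0.0262 to 0.405). Loxl1 passed in 7 of the 16 alternatives that gave it a value, among them DESeq2, the correction for gene length, and fits with either the composition factor or the low-count filter left out, and Loxl2 in 1 of 16. The levels rest on few reads, 26 of Loxl1 and 27 of Loxl2 in the 3 samples of 4LPS, against 119 and 99 in the 3 samples of NS. In FPKM the shares of the 4 member genes differed between the groups. Loxl4, a lysyl oxidase of the wider list, was not counted in these shares. Lox made up 42.8%, 45.5% and 50.7% of the FPKM of the 4 genes in 4LPS and 5.04%, 5.14% and 10.7% in NS. Loxl3 made up 54.4%, 53.5% and 48.2% in 4LPS and 77.4%, 80.6% and 84.7% in NS. Among these 4 genes Loxl3 was therefore the main transcript of NS samples, and in 4LPS samples Lox stood beside it at a near equal level.

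**Figure D2:**
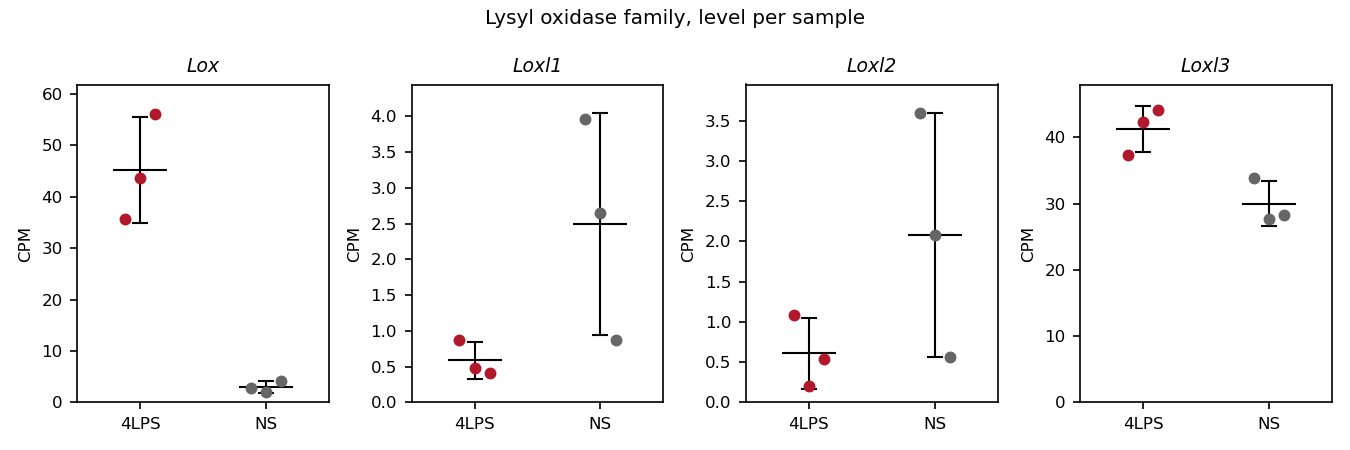
Levels of the 4 lysyl oxidases among the members in CPM (y axis, a scale for each gene) in 4LPS and NS samples, with 1 point for each sample and the mean ± SD of 3 samples. The 4LPS samples of Lox lie at 35.7 to 56.1 CPM and the NS samples at 2.07 to 4.21 CPM, whereas in Loxl1 and Loxl2 the lowest NS sample reaches the 4LPS samples.

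Lox is known as a gene of fibroblasts, smooth muscle and endothelial cells, and the marker sums of these cells were not higher in 4LPS on average. The fibroblast, endothelial, and pericyte and smooth muscle sums were lower on average in 4LPS. None of their genes was higher at an unadjusted p under 0.05 with edgeR, DESeq2 or limma-voom. Within each group, however, Lox had the sample order of the endothelial sum (304, 385 and 594 CPM in 4LPS and 670, 536 and 1042 CPM in NS). The pericyte and smooth muscle sum had this order too (165, 233 and 362 CPM in 4LPS and 320, 252 and 534 CPM in NS), and the fibroblast sum did not. Per 100 CPM of the endothelial markers, a scale chosen after the data were seen, Lox was at 11.7, 11.4 and 9.45 in 4LPS and 0.404, 0.387 and 0.405 in NS. Transcripts of natural killer and T cells were also higher in 4LPS. All 8 natural killer and T cell markers tested rose, and their sum was 135, 125 and 143 CPM in 4LPS and 6.86, 5.91 and 11.6 CPM in NS. The T cell genes Cd3e, Cd3d and Cd3g did not pass the filter on low counts in edgeR. They had 19, 23 and 21 reads in the 3 samples of 4LPS and 1, 2 and 1 reads in the 3 samples of NS, were higher in 4LPS without overlap, and had an unadjusted p under 0.05 with DESeq2 but no adjusted call. Neutrophil markers summed to 1231, 519 and 808 CPM in 4LPS and 201, 210 and 782 CPM in NS, monocyte markers to 248, 170 and 251 CPM in 4LPS and 181, 132 and 293 CPM in NS, and border macrophage markers to 558, 252 and 392 CPM in 4LPS and 317, 342 and 463 CPM in NS. With edgeR Ms4a4c of the monocyte list and Ms4a7 of the border macrophage list rose, and no neutrophil marker passed. DESeq2 called these and also the monocyte markers Ccr2 and Ly6c2 and the neutrophil marker Cxcr2 higher. It called the border macrophage marker Mgl2 lower, and limma-voom called only Ms4a4c in these lists. The part of any of these cells in the level of Lox was not tested.

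The proteases and their inhibitors did not move together: Mmp14 rose, Timp3 fell, and Mmp2, Timp2 and Adamts1 did not pass. Mmp14, on chromosome 14 at 54668878 to 54682821 of GRCm39 with 10 exons, encodes a membrane-bound MMP that cleaves collagen and activates pro-MMP2. Its level was 112, 114 and 135 CPM in 4LPS and 60.0, 55.4 and 59.4 CPM in NS, so every 4LPS sample was far above the NS samples. The log2 fold change was 1.04 (standard error 0.08, adjusted p = 1.77e-04 from edgeR). Timp3 is the TIMP that stays bound to the matrix. It had 39.2, 30.9 and 49.0 CPM in 4LPS and 112, 81.5 and 88.4 CPM in NS, again with no overlap, and fell by 1.24 on the log2 scale (with a standard error of 0.18 and an adjusted p of 0.00329 from edgeR). Timp3, like Hspg2 and Nid2, overlaps a gene on the opposite strand (Syn3, with Ldlrad2 for Hspg2 and Rtraf for Nid2), whose reads may not be separated from its own. The ratio of Mmp14 to Timp3 in FPKM was 3.57, 4.58 and 3.44 in 4LPS and 0.671, 0.849 and 0.841 in NS. Mmp14 was thus the higher of the pair in each 4LPS sample and Timp3 in each NS sample. The ratio of Mmp14 to Timp2, which with Mmp14 binds pro-MMP2 at the cell surface, was 0.164 ± 0.00347 in 4LPS and 0.0915 ± 0.0074 in NS.

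Mmp2, a gelatinase, had 46.3, 46.6 and 47.7 CPM in 4LPS and 44.3, 41.0 and 36.4 CPM in NS, and Timp2 had 654, 663 and 759 CPM in 4LPS and 629, 622 and 568 CPM in NS. In neither gene did the groups overlap, but the log2 fold changes were only 0.21 and 0.19 with adjusted p of 0.109 and 0.115 from edgeR. Both passed with the correction for gene length, and Timp2 also with DESeq2. Adamts1, which cleaves proteoglycans, was at 27.2 ± 5.83 CPM in 4LPS and 36.7 ± 9.40 CPM in NS, a difference of -0.43 on the log2 scale (adjusted p = 0.181 from edgeR).

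All 12 genes of the basement membrane had a log2 fold change below 0, with a median of -0.81, although Agrn and Lamc1 were above 0 with the correction for gene length. Hspg2, Lama5, Lamb2 and Nid2 fell. Hspg2 encodes perlecan, and Nid2 a nidogen that bridges laminin and collagen IV. Hspg2 had 9.04, 10.1 and 11.9 CPM in 4LPS and 33.8, 19.2 and 23.8 CPM in NS, so the groups stood well apart while the NS samples were spread. On the log2 scale it fell by 1.30 (standard error 0.21, adjusted p = 0.00616 from edgeR). Nid2 had 46.7, 41.3 and 40.8 CPM in 4LPS and 83.7, 79.2 and 63.5 CPM in NS, and fell by 0.81 on the log2 scale (with a standard error of 0.11 and an adjusted p of 0.00263 from edgeR). The other nidogen, Nid1, was the lower transcript of the pair, at 0.707 ± 0.245 FPKM in 4LPS and 1.33 ± 0.525 FPKM in NS, beside 9.02 ± 0.769 FPKM in 4LPS and 17.0 ± 2.52 FPKM in NS for Nid2. Its log2 fold change of the counts was also -0.81, but its samples overlapped (adjusted p = 0.150 from edgeR). Agrn, which encodes agrin, had 61.2, 65.1 and 73.2 CPM in 4LPS and 67.8, 59.9 and 85.2 CPM in NS. Agrn thus overlapped widely between the groups, and its log2 fold change was -0.09 with a 95% interval of -0.39 to 0.20 (it was 0.09 with the correction for gene length and 0.06 without NS replicate 3).

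Of the 6 laminin chains, the alpha chain Lama5 and the beta chain Lamb2 fell. Lama5, the alpha chain of a laminin of endothelial basement membranes, had 11.5, 14.7 and 23.1 CPM in 4LPS and 33.3, 29.2 and 37.6 CPM in NS (log2 fold change -1.02, standard error 0.23, adjusted p = 0.0234 from edgeR). Lamb2, a beta chain of vascular laminins, had 35.1, 38.8 and 56.5 CPM in 4LPS and 79.1, 70.2 and 94.0 CPM in NS (log2 fold change -0.90, standard error 0.18, adjusted p = 0.0147 from edgeR). In both genes 4LPS replicate 3 was the highest 4LPS sample and still below every NS sample. Without 4LPS replicate 2 neither passed, with log2 fold changes of -0.94 and -0.81 and adjusted p of 0.0813 and 0.0558 from edgeR. Without NS replicate 1 Lama5 did not pass (-1.03, adjusted p = 0.0718 from edgeR), nor did it with the correction for gene length, and over all alternatives the adjusted p was 2.65e-05 to 0.0813 for Lama5 and 4.4e-07 to 0.0558 for Lamb2. Reads of Lama5 may include some of Adrm1, which overlaps it on the opposite strand.

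Lamb1, the other beta chain, had the lowest log2 fold change of the laminins, -1.92, but widely spread samples. It was at 5.46, 1.16 and 2.17 CPM in 4LPS and 16.7, 11.6 and 5.08 CPM in NS (standard error 0.58, adjusted p = 0.0602 from edgeR). The lowest NS sample, replicate 3, lay below the highest 4LPS sample, replicate 1, and Lamb1 passed without either of them (log2 fold changes of -2.26 and -2.73, adjusted p of 0.0164 and 0.0269 from edgeR, over all alternatives 0.0122 to 0.186). Lama2, the alpha chain of astrocyte and pericyte laminin, had 1.48, 1.77 and 1.76 CPM in 4LPS and 3.46, 1.89 and 3.90 CPM in NS. Its samples did not overlap, with an adjusted p of 0.0937 from edgeR and of 0.0327 without NS replicate 2 (log2 fold changes of -0.88 and -1.14, adjusted p over all alternatives 0.0327 to 0.231). Lama4, an endothelial alpha chain, had 2.36, 3.47 and 5.56 CPM in 4LPS and 4.03, 3.84 and 9.67 CPM in NS (log2 fold change -0.62, adjusted p = 0.350 from edgeR). Lamc1, the gamma chain that most laminin trimers share, differed from its partners. It had 33.1, 39.5 and 38.9 CPM in 4LPS and 36.6, 35.3 and 43.0 CPM in NS, and its log2 fold change was -0.04 with a 95% interval of -0.28 to 0.19 (it was 0.15 with the correction for gene length).

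Col4a1 and Col4a2 encode the chains that join as 2 of the first and 1 of the second in the collagen IV of vessels. The genes lie head to head on chromosome 8, where the annotation of GRCm39 has them share 356 bases at 11362471 to 11362826. Col4a1 had 19.2, 24.6 and 37.5 CPM in 4LPS and 43.6, 30.5 and 58.3 CPM in NS, and Col4a2 had 14.2, 19.1 and 27.6 CPM in 4LPS and 30.5, 24.6 and 41.8 CPM in NS. In both genes 4LPS replicate 3 lay above NS replicate 2, so the groups overlapped. The log2 fold changes were -0.70 and -0.67 (standard errors 0.29 and 0.26, adjusted p = 0.130 and 0.120 from edgeR), and Col4a2 passed with DESeq2. The ratio of Col4a2 to Col4a1 in FPKM was steady, at 0.770 ± 0.0239 in 4LPS and 0.762 ± 0.0598 in NS, while the samples of a group differed widely in the level of either gene.

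**Figure D3:**
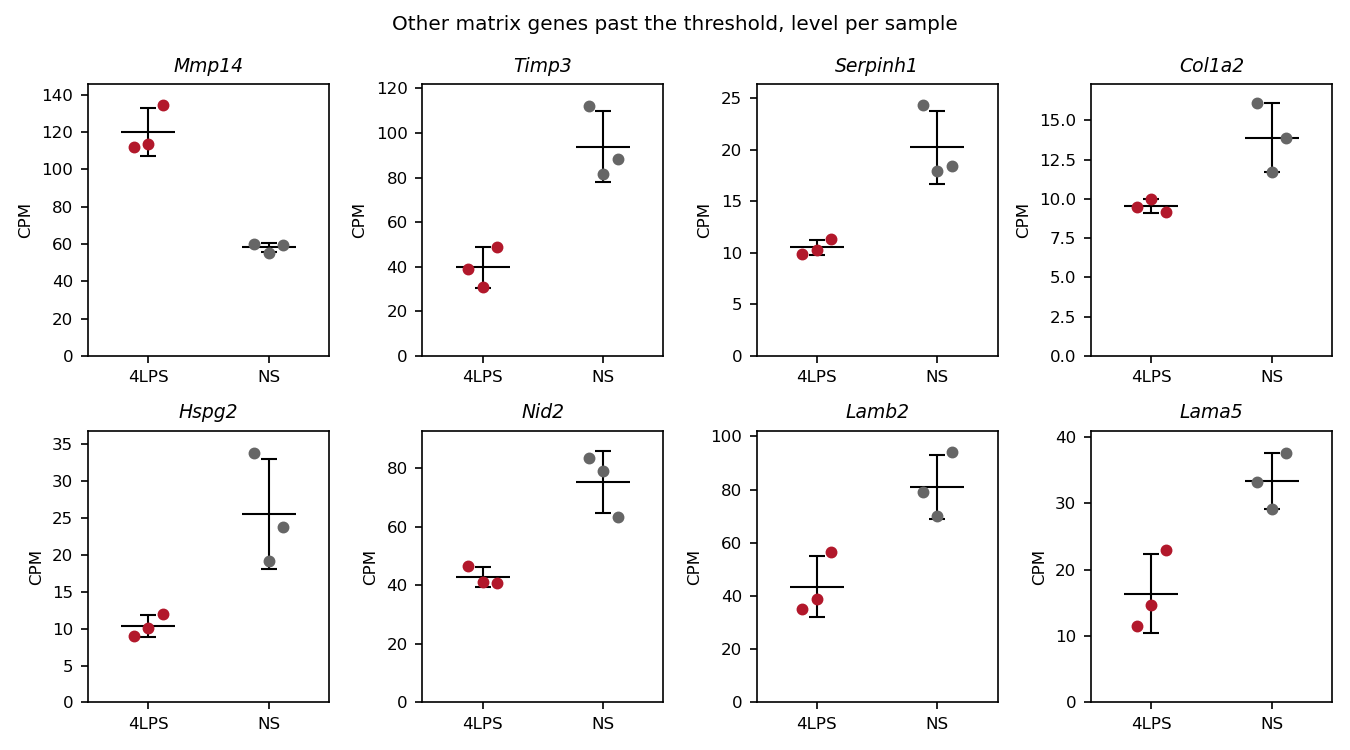
Levels in CPM (y axis, a scale for each gene) of the 8 other members that passed the test, in 4LPS and NS samples, with 1 point for each sample and the mean ± SD of 3 samples. Mmp14 lies higher in 4LPS and the 7 other genes lie lower, and in none of the 8 do the samples of the groups overlap.

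Among the collagens of the interstitial matrix only Col1a2 passed. Col1a2, a chain of type I collagen, had 9.51, 9.99 and 9.15 CPM in 4LPS and 16.1, 11.7 and 13.9 CPM in NS, with the 4LPS samples close together and below every NS sample. The log2 fold change of -0.54 passed (standard error 0.13, adjusted p = 0.0323 from edgeR). The call was lost without any of the 4LPS samples and without NS replicate 1, with log2 fold changes of -0.53, -0.56, -0.50 and -0.42 and adjusted p of 0.0836, 0.0801, 0.102 and 0.109 from edgeR (over all alternatives 0.0201 to 0.109). It was also lost with the correction for gene length, with the replicate block and that correction together, and on log2(FPKM + 1) without filter. The partner chain Col1a1 was at 3.19 ± 1.10 CPM in 4LPS and 2.98 ± 0.0795 CPM in NS, with a log2 fold change of 0.09 that was -0.0029 without a composition factor. Col3a1, Col5a1, Col6a1 and Col6a2 had log2 fold changes of -0.26 to -0.04, overlapping samples and means of at most 7.26 CPM in either group. Col3a1 rested on 94 reads in 4LPS and 105 in NS, and Col5a1 on 44 and 56. Whether differences of this size could be detected in these samples was not tested.

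Serpinh1 encodes the chaperone HSP47 that folds procollagen in the endoplasmic reticulum, and it fell. It lies on chromosome 7 at 98994220 to 99005076 of GRCm39, on the minus strand, with 5 exons. Its level was 9.92, 10.3 and 11.4 CPM in 4LPS and 24.4, 18.0 and 18.5 CPM in NS, so that the 4LPS samples lay close together and well below the NS samples. The log2 fold change was -0.95 (standard error 0.14, adjusted p = 0.00403 from edgeR). P4ha1, a subunit of the enzyme that hydroxylates prolines of collagen, was at 444 ± 19.4 CPM in 4LPS and 421 ± 5.81 CPM in NS. The log2 fold change of P4ha1 was 0.08 with a 95% interval of -0.04 to 0.19, and it was -0.02 without a composition factor.

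None of the elastic fibre genes, small leucine-rich proteoglycans or SPARC family genes passed with edgeR, although 4 of the 7 tested had an unadjusted p under 0.05, all with a log2 fold change below 0 (Fbn1 passed with DESeq2 and Spock2 with limma-voom). Fbn1, which encodes the microfibril protein fibrillin-1, was at 5.13, 2.38 and 2.85 CPM in 4LPS and 10.95, 7.29 and 4.65 CPM in NS (log2 fold change -1.14, adjusted p = 0.0781 from edgeR). It passed without 4LPS replicate 1 or NS replicate 3, with log2 fold changes of -1.54 and -1.40 and adjusted p of 0.0485 and 0.0233 from edgeR (over all alternatives 0.0147 to 0.237). Spock2, a testican proteoglycan, was lower in every 4LPS sample, at 33.1, 59.5 and 85.0 CPM in 4LPS and 128, 93.7 and 193 CPM in NS. Its log2 fold change was -1.22 with an adjusted p just above the threshold, 0.0533 from edgeR, and it passed in 9 of the 19 alternatives, among them that without 4LPS replicate 3 (-1.56, adjusted p = 0.0439 from edgeR, over all alternatives 0.00952 to 0.131). Sparcl1, known from astrocytes and vessels, differed by -0.60 on the log2 scale (adjusted p = 0.146 from edgeR). Sparc, by contrast, was at 3851, 3952 and 3876 CPM in 4LPS and 3589, 3991 and 3803 CPM in NS. Its log2 fold change was 0.04 with a 95% interval of -0.12 to 0.20, and -0.06 without a composition factor. Eln, Bgn and Dcn had log2 fold changes of -0.42, -0.63 and -0.06. Lum had 12 reads in all 4LPS samples and 13 in all NS samples and was not tested.

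Within a group many members were lowest or highest in the same sample. The share of all genes tested in each place was not computed, so these counts do not set the members apart from other genes. Of the 36 members tested, 27 were lowest in 4LPS replicate 1 among the 4LPS samples and 21 were highest in 4LPS replicate 3. In NS, 26 were lowest in replicate 2, while 19 were highest in replicate 3 and 15 in replicate 1. The sums of the endothelial and of the pericyte and smooth muscle markers had this same order, lowest in 4LPS replicate 1 and highest in 4LPS replicate 3, and lowest in NS replicate 2 and highest in NS replicate 3. Fbn1, Lamb1, Loxl1 and Loxl2 had a different order, which in NS fell from replicate 1 to replicate 3. Nid2, Mmp2 and Timp2 had the same order in NS. This NS order was also that of the fibroblast marker sum (201, 131 and 96.2 CPM for replicates 1 to 3). The choroid plexus marker sum had it too, at 10376, 8679 and 1093 CPM in the same samples. In the fibroblast sum Igfbp2 alone took 114, 79.8 and 17.6 CPM. Among its other genes Fbln1 and Islr shared the order, whereas Mgp (26.7, 15.7 and 31.2 CPM), Foxc1 and Cdh11 were highest in NS replicate 3. In 4LPS replicates 1 to 3 the fibroblast sum was 79.8, 44.7 and 58.4 CPM and the choroid plexus sum 3445, 19.8 and 897 CPM.

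**Figure D4:**
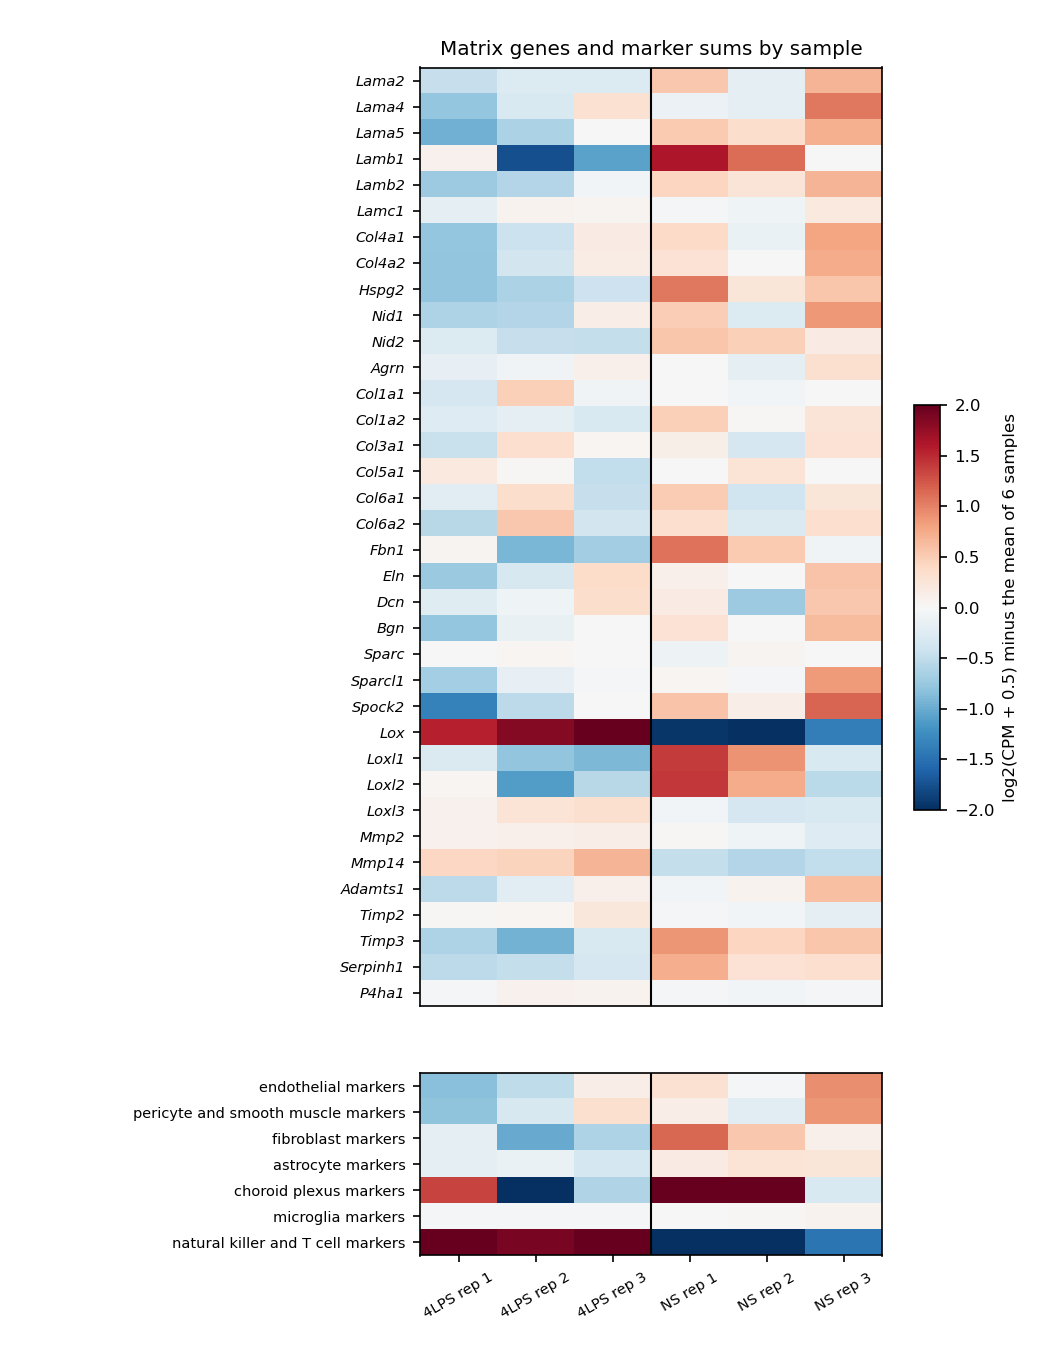
Log2(CPM + 0.5) of the 36 members tested (upper rows) and of summed marker lists (lower rows) in each sample, as the difference from the mean of the 6 samples. Red is above the mean, blue is below it, and colours are saturated at 2 and -2. The counts that follow were not computed over all genes. Within their group 21 members are highest in 4LPS replicate 3 and 19 in NS replicate 3, as are the endothelial and pericyte markers, while Lox, Mmp14 and Loxl3 run the other way between the groups.

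The levels of the members were also set against those of the endothelial markers. Per 100 CPM of these markers, Col4a1 was at 6.32, 6.40 and 6.31 in 4LPS and 6.50, 5.69 and 5.60 in NS, so the groups overlapped and the samples of 4LPS were nearly equal. Col4a2 was at 4.65, 4.97 and 4.65 in 4LPS and 4.55, 4.60 and 4.01 in NS, and lay slightly higher in 4LPS without overlap. Among the genes that fell, Lamb2 was at 11.5, 10.1 and 9.51 in 4LPS and 11.8, 13.1 and 9.03 in NS on this scale, and Hspg2 at 2.97, 2.63 and 2.01 in 4LPS and 5.04, 3.58 and 2.28 in NS. All 7 members that fell overlapped between the groups on this scale, and Spock2 was the 1 member that lay lower without overlap, at 10.9, 15.5 and 14.3 in 4LPS and 19.1, 17.5 and 18.5 in NS. Only 0.449% of all genes tested lay lower without overlap on it, since the marker sum itself is lower on average in 4LPS. Of the members 10 lay higher without overlap, and 26.6% of all genes tested did so. Mmp14 was among them, as was Col4a2, with Mmp14 at 36.7, 29.5 and 22.7 in 4LPS and 8.96, 10.3 and 5.71 in NS. Per 100 CPM of the pericyte and smooth muscle markers, 2 members lay lower without overlap, Lama5 and Spock2, as did 1.03% of all genes tested, and 4 lay higher, as did 8.5% of all genes. On that scale Lama5 was at 6.97, 6.29 and 6.36 in 4LPS and 10.4, 11.6 and 7.05 in NS. Per 100 CPM of the fibroblast markers, 0 members lay lower without overlap, 7 lay higher and 29 overlapped, Lama5 and Spock2 among the latter. The share of all genes was not computed on the fibroblast scale, so its counts do not set the members apart from other genes. The fibroblast marker sum was itself lower in every 4LPS sample than in any NS sample. These scales were all chosen after the data were seen. Whether the lower levels of the basement membrane genes come with fewer vascular cells among the retained cells was not tested beyond these values.

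**Figure D5:**
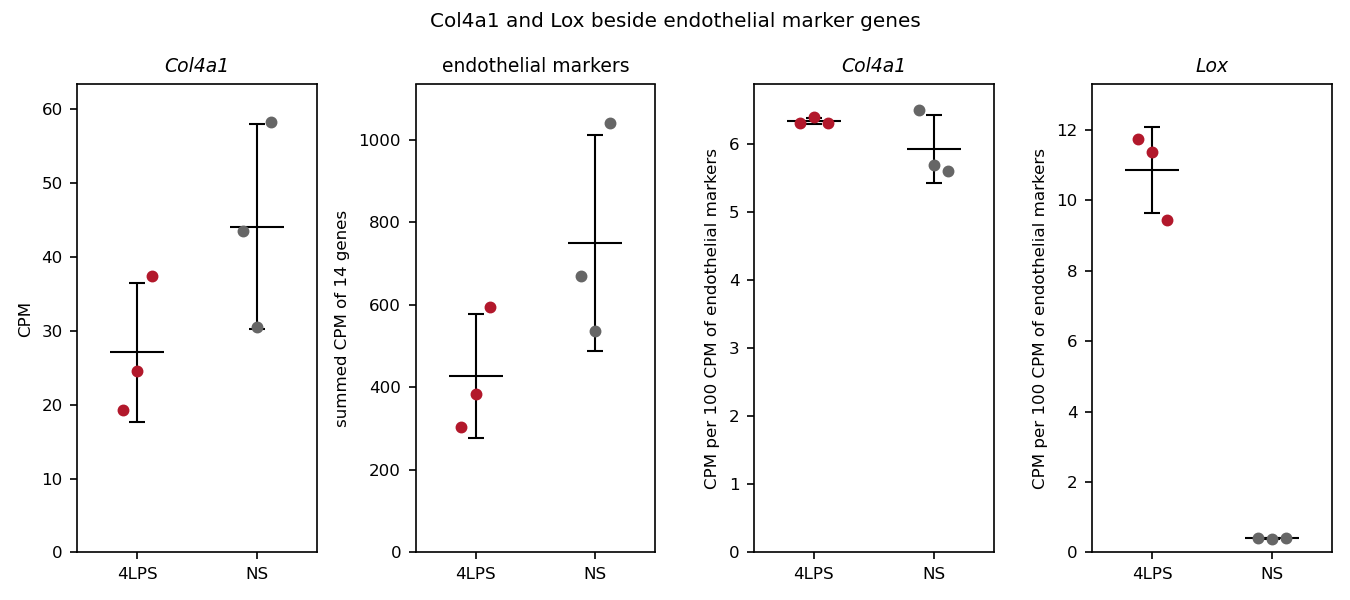
Col4a1 in CPM, the summed CPM of 14 endothelial markers, and Col4a1 and Lox per 100 CPM of these markers (y axes) in 4LPS and NS samples, with 1 point for each sample and the mean ± SD of 3 samples. Col4a1 lies at 6.31 to 6.40 in 4LPS and 5.60 to 6.50 in NS on the scale of the markers, whereas Lox lies at 9.45 to 11.7 in 4LPS and 0.387 to 0.405 in NS.

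A wider list of 165 matrix genes that are not members gave calls in both directions. Of its 137 genes tested, 21 rose (15.3%) and 18 fell (13.1%), beside 9.95% and 6.43% of all genes tested. The median log2 fold change was -0.35 over the list and -0.02 over all genes. The counts of its groups that follow have the same background. On leaving out 1 sample the number that fell was 6 (4LPS replicate 2), 11 (4LPS replicate 3), 7 (NS replicate 1), 10 (NS replicate 2) or 30 (NS replicate 3), and the number that rose was 13 without NS replicate 1. Of 13 proteoglycan genes tested 5 fell, and none was higher at an unadjusted p under 0.05 with edgeR, DESeq2 or limma-voom. Those that fell included the brevican gene Bcan of the perineuronal matrix and Ogn, a small leucine-rich proteoglycan that is also on the fibroblast marker list. Bcan was at 3.37 ± 0.463 CPM in 4LPS and 9.26 ± 3.46 CPM in NS, and Ogn at 2.30 ± 0.836 CPM in 4LPS and 6.45 ± 2.06 CPM in NS. Their log2 fold changes were -1.46 and -1.48 (adjusted p = 0.0165 and 0.0194 from edgeR).

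Among the other proteases and inhibitors 7 rose and 3 fell of 27 tested. The macrophage elastase gene Mmp12 was at 3.86 ± 1.60 CPM in 4LPS and 1.33 ± 0.289 CPM in NS, and Mmp19 at 4.36 ± 0.530 CPM in 4LPS and 1.82 ± 0.361 CPM in NS. The membrane-bound Mmp15 fell, in contrast to its relative Mmp14, with 7.02 ± 2.13 CPM in 4LPS and 20.3 ± 6.93 CPM in NS (log2 fold change -1.53, adjusted p = 0.0121 from edgeR). Reck, which encodes a membrane-anchored inhibitor of MMPs, fell as Timp3 did, at 8.47 ± 2.31 CPM in 4LPS and 17.1 ± 5.11 CPM in NS (log2 fold change -1.01, adjusted p = 0.0361 from edgeR).

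Of 24 matrix receptors 7 rose and 5 fell. Itga2, a chain of a collagen-binding integrin that is also carried by natural killer cells and platelets, was at 2.26 ± 0.378 CPM in 4LPS and 0.458 ± 0.140 CPM in NS (log2 fold change 2.28, adjusted p = 0.00386 from edgeR). Cd44, the hyaluronan receptor, was at 24.2 ± 6.32 CPM in 4LPS and 9.97 ± 4.95 CPM in NS. The collagen receptor Ddr2 and the syndecan Sdc2 fell, with log2 fold changes of -1.05 and -1.19. Among 15 genes of collagen processing 3 rose and 1 fell. Colgalt1, which glycosylates collagen, was at 246 ± 8.45 CPM in 4LPS and 176 ± 1.38 CPM in NS (log2 fold change 0.48, adjusted p = 3.37e-04 from edgeR), and Plod1, a lysyl hydroxylase, had a log2 fold change of 0.33. The transglutaminase Tgm2, a cross-linking enzyme of another kind than Lox, fell to 84.2 ± 20.2 CPM in 4LPS, against 177 ± 8.01 CPM in NS (log2 fold change -1.07, adjusted p = 0.00314 from edgeR).

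Of 13 other collagens Col6a3 and Col27a1 rose, with log2 fold changes of 0.36 and 0.30. Of 17 other basement membrane genes Npnt rose, with 138 ± 7.91 CPM in 4LPS and 92.1 ± 5.73 CPM in NS, and Col4a5 and Tinagl1 fell, with log2 fold changes of -1.23 and -1.04. Among 18 matricellular and adhesive genes Ecm1 rose (1.40) and Ecm2 and Postn fell (-1.17 and -0.32 on the log2 scale). None of 10 other elastic fibre genes passed with edgeR, DESeq2 or limma-voom, and 1 in each direction had an unadjusted p under 0.05 with edgeR. Of the 21 genes of the wider list named here, Npnt, Col27a1, Colgalt1, Tgm2, Mmp19 and Itga2 passed without each sample in turn, and the other 15 lost the call without at least 1 of them. The calls lost numbered 5 without 4LPS replicate 1 (adjusted p of 0.0546 to 0.109 from edgeR), 10 without 4LPS replicate 2 (0.051 to 0.103), 10 without 4LPS replicate 3 (0.0555 to 0.111), 13 without NS replicate 1 (0.0544 to 0.127), 8 without NS replicate 2 (0.0509 to 0.105) and 1 without NS replicate 3 (Reck, 0.0537). With other settings Postn lost its call in DESeq2, without the filter, with the correction for gene length and with the replicate block, and in all in 10 of 19 alternatives. Bcan and Reck lost theirs with limma-voom, Col6a3 without a composition factor, and Col6a3, Plod1 and Ddr2 in all 3 fits on FPKM. Mmp12, Cd44 and Reck lost theirs on log2(FPKM + 1) without filter.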

How the data were processed

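RNA-seq libraries of CD11b+ cells isolated by MACS from the cortex were analysed, 3 from 4LPS mice and 3 from NS mice, with groups and replicate numbers taken from the sample labels. Each sample was a pool of 2 mice, and p-values measure the spread between these samples. The authors filtered paired reads, aligned them to the mouse genome (the submitters' processing notes list mm39 and mm10) using HISAT2 2.0.4 together with Bowtie2 2.2.5, and quantified genes by RSEM 1.2.8. The notes also name DESeq2 1.16.1. Neither the gene annotation nor the use of strand is given in the sources used here. For 16516 genes the authors deposited expected counts of RSEM, which are not normalized. The FPKM values that the authors deposited are scaled for gene length and library total. TPM values and a normalized signal that the authors deposited, and their group means, were not used.

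Expected counts (2.77% not whole) were rounded for edgeR 4.0.16 in R 4.3.3 (TMM factors, filterByExpr, quasi-likelihood F-test, Benjamini-Hochberg adjustment over 13151 genes, threshold 0.05). Total counts were 15164123 to 15462396 in 4LPS and 15158342 to 15746606 in NS. The mean chi-square per gene between 2 samples of a group was 5.92 or more, so that none repeated another within sampling noise. An exact permutation test of 3 against 3 samples cannot go below p = 0.1, so p-values come from fits across all genes. Alternatives were RLE, upper-quartile or no composition factors, no low-count filter or a minimum of 50 counts in 3 samples, limma-voom (limma 3.58.1), DESeq2 1.42.0, limma on log2(FPKM + 1) or log2(FPKM + 0.1) where 3 samples reached 1 FPKM, log2(FPKM + 1) without that filter, a loess correction for gene length, a replicate block, both together, and leaving out each sample.

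Members and lists were chosen with earlier results of these data known, so their counts are descriptions and no test was made over a list. Values per sample are given for members that passed and for lysyl oxidases, collagen IV and laminins, with some others added after their values were seen. From each group of the wider list up to 2 genes per direction with the largest change among those that passed at a mean of at least 1 CPM are named. Coordinates of genes are those of GRCm39 in GENCODE, and promoter windows those of RefSeq on GRCm38.p6, matched by symbol for 24 of 37 members.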

Additional observations from a re-analysis of the deposited data

How the results depend on the processing

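Over 19 alternatives and 57 genes followed, most values kept their direction and side of the threshold. Members higher numbered 5 with the gene length correction, and 2 to 3 without 1 sample. Members lower numbered 4 to 11 without 1 sample. The median log2 fold change of the members was -0.34 on FPKM with a pseudocount of 1 and no filter, and -0.75 to -0.28 without 1 sample. Deviations of same-numbered samples correlated at 0.473, -0.262 and 0.0663, and those of samples with unlike numbers at -0.542 to 0.468. The replicate numbers were thus not used as pairs in the reported fit. With 3 samples per group these values cannot exclude that samples were prepared in pairs. With the replicate block 16 members and 28 genes of the wider list were lower, and with the block and the length correction 5 members were higher, 14 lower and 37 genes of the wider list higher. On FPKM without filter 12 genes of the wider list were higher. Without 1 sample 13 to 30 of them were higher and 6 to 30 lower. Over all genes, 1308 were higher and 845 lower in the reported fit. Those higher were 813 to 823 in the 3 fits on FPKM, 2148 with the length correction, 2374 with the block as well, and 781 to 1629 without 1 sample. Those lower were 1711 without a composition factor, 1081 with the replicate block, and 1029 with the block and the length correction. They were 1335 to 1486 on FPKM, and 363 to 1215 without 1 sample.

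Signs changed in genes near 0, none of which passed. With the gene length correction, and with the block as well, the log2 fold changes were 0.094 and 0.098 for Agrn, 0.10 and 0.079 for Col3a1, and 0.15 and 0.14 for Lamc1. Without a composition factor they were -0.0029 for Col1a1, -0.020 for P4ha1 and -0.060 for Sparc. On FPKM they were -0.0069 for Col1a1 without filter, and in all 3 fits -0.019 for P4ha1 and -0.056 for Sparc. For Dcn they were 0.059 with limma-voom, 0.0067 with the block and 0.013 with the block and length correction. Without 1 sample they ranged over -0.20 to 0.060 for Agrn, -0.20 to 0.29 for Col1a1, -0.27 to 0.19 for Col3a1, -0.45 to 0.029 for Col5a1, -0.65 to 0.0026 for Col6a2, -0.41 to 0.33 for Dcn, -0.098 to 0.050 for Lamc1 and -0.0016 to 0.076 for Sparc. The cause of these changes was not tested. Depth limits members with few reads, such as Lum, Col5a1, Loxl1 and Loxl2.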
